A study of Homo sapiens with 3 samples.

Results

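Reads of SNORD19, HBII_108B and SNORD69 were followed in small RNA of HEK293, a human cell line established from embryonic kidney. These are the 3 entries, of 260 snoRNA entries with reads (147 of them box C/D), that lie in introns of GNL3. They were picked by entry name and host gene. The data are 3 libraries that form 1 group, from cells grown in DMEM with serum and antibiotics and with no treatment named, whose RNA was extracted with phenol and chloroform and cleaned on beads to keep small RNA. Whether they stem from separate cultures is not stated in the labels, so the spread between them may be technical. With 1 group, every comparison was made within libraries, between the snoRNAs.

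Box C/D snoRNAs guide 2′-O-methylation of other RNAs. Each folds its ends together so that box C near the 5′ end and box D near the 3′ end form the binding site of the core proteins, and the bases just before box D (or an inner copy, box D′) pair with the target. Most are cut out of introns: after splicing, exonucleases trim the intron from both sides until they meet the bound proteins. GNL3 encodes nucleostemin, a nucleolar GTP-binding protein abundant in proliferating cells. SNORD19 is a guide for the small-subunit rRNA and SNORD69 for the large-subunit rRNA.

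On GRCh38 (GENCODE 29, plus strand), GNL3 covers chr3:52681156-52694492. SNORD19 lies at chr3:52689248-52689315 in intron 6 of a coding GNL3 transcript of 15 exons, and HBII_108B, named SNORD19B there, lies at chr3:52690744-52690827 in intron 7. The latter also falls inside a exon of a GNL3 transcript that retains the intron. SNORD69 lies at chr3:52692736-52692812 in intron 9. Intron 8 holds a further related gene, SNORD19C in RefSeq (GRCh38.p14), which GENCODE lists under the family name RF00569. None of the 260 entries carried the name SNORD19C, so no reads were analysed for it and only its sequence was compared.

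The GENCODE models are shown because read positions below are counted from their starts. The deposited files give no start of an entry on the genome, so this numbering was assumed. Capitals mark a box C motif (TGATGA) and the last box D motif (CTGA), both searched on the sense strand.
SNORD19: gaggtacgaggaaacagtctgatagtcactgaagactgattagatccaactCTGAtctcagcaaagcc
HBII_108B: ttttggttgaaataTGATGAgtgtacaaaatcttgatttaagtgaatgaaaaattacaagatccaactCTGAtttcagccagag
SNORD69: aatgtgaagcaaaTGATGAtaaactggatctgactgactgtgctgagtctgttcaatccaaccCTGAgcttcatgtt
The SNORD19 model of 68 nt held no TGATGA, whereas the models of HBII_108B (84 nt) and SNORD69 (77 nt) each held it once. Among the 288 GENCODE sequences named SNORD, 77.4% held TGATGA and 98.3% held CTGA. RefSeq starts SNORD19 8 nt and SNORD19B 6 nt further upstream, and SNORD69 at the same base. The bases that RefSeq adds to SNORD19 were not in the model searched, so a box C there would not be seen. Counted from the RefSeq start, the bases and coordinates given below for HBII_108B reads would move 6 nt upstream. Their places relative to the boxes and the paired ends would move too.

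Called copies of one snoRNA, SNORD19 and HBII_108B were alike mainly around box D in the GENCODE models. These models leave out the 8 nt and 6 nt that RefSeq adds upstream, so likeness in those bases does not enter the identities. A global alignment gave 59.3% identical columns (51 of 86), against 54.2% between SNORD19 and SNORD69 and 55.4% between HBII_108B and SNORD69. Their longest shared run was 15 nt, agatccaactctgat, at positions 42 to 56 of SNORD19 and 59 to 73 of HBII_108B. The 7 nt atccaac within it also stood in SNORD69, and in all 3 it ended 2 positions before the first base of box D, at position 50, 67 and 62. Of the 288 SNORD sequences, 3 (1.04%) held atccaac on the sense strand, and these were the 3 genes themselves. The search also found it in the RF00569 gene of intron 8. That gene gave 64.2% identical columns with SNORD19, with a longest shared run of 17 nt, and 58.9% with HBII_108B.

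SNORD69 and HBII_108B were well represented and SNORD19 was close to absent. SNORD69 had 523, 294 and 355 reads in libraries 1, 2 and 3, which held 19989, 11958 and 19092 snoRNA reads. These are shares of 2.62%, 2.46% and 1.86% of the snoRNA reads, and the exact (Clopper-Pearson) 95% interval was 2.40% to 2.85% in library 1, 2.19% to 2.75% in library 2 and 1.67% to 2.06% in library 3. SNORD69 averaged 2.31% ± 0.40 (SD, n = 3), rank 11 of 147 box C/D entries, and rank 7 of 145 when the share was divided by the length of the commonest span. HBII_108B had 80, 77 and 241 reads, or 0.400% (interval 0.317% to 0.498%), 0.644% (0.508% to 0.804%) and 1.26% (1.11% to 1.43%). HBII_108B averaged 0.769% ± 0.44 (SD, n = 3), rank 38 of 147 by share and 35 of 145 per base, where the median box C/D entry took 0.332%. The reads carry no molecular identifiers, so intervals and floors cover counting error only.

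SNORD19 had 0, 1 and 2 reads. Its shares were 0%, 0.00836% and 0.0105%, and the count of 0 allows up to 0.0150% of library 1, taking 3 counts as the floor. It ranked 146 of 147 box C/D entries, and 2 of the 147 had at most 3 reads in all. All 3 reads were 18 nt long, the shortest length in the files, and ran from position 50 to 67. The 2 reads of library 3 were 2 separate records at the same positions. Since a record stands for a distinct sequence, at most 1 of these 2 can match the entry at every base.

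Which bases of SNORD19 those reads cover depends on where the authors' entry begins, and both readings are shown because they differ in what the reads can tell.
Positions 50 to 67 counted from the GENCODE start: ctCTGAtctcagcaaagc
Positions 50 to 67 counted from the RefSeq start: agatccaactCTGAtctc
Capitals mark box D. The first stretch (chr3:52689297-52689314) differed from its closest stretch of HBII_108B at 5 of 18 bases. The second (chr3:52689289-52689306) differed at 1 of 18 bases from positions 59 to 76 of HBII_108B. It also differed at 1 of 18 from positions 50 to 67 of the RF00569 gene, the same position numbers as the reads. SNORD19C of RefSeq begins at the first base of that gene and is 67 nt long. Which gene the reads came from was not tested. The deposited files give no read sequences and no start of the entry on the genome. Every sequence number was listed under 1 entry only, with the rule for reads that fit several snoRNAs not stated in the labels. Few as they are, these reads do not settle whether SNORD19 itself was present.

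**Figure D1:**
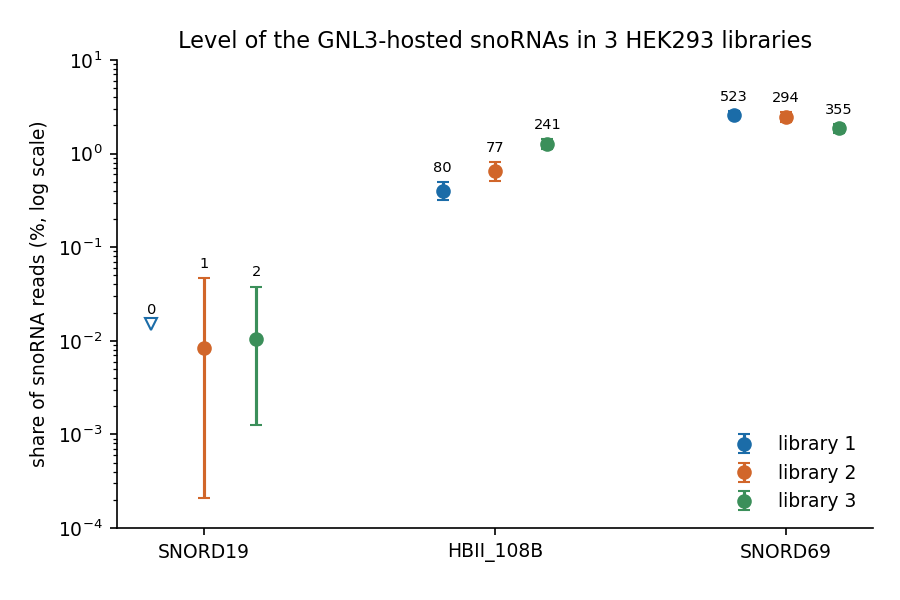
Share of all snoRNA reads (percent, log axis) for the 3 GNL3-hosted snoRNAs in each library, with exact 95% intervals and the read count above each point; the open triangle is the floor of 3 counts for a count of 0. SNORD69 lies between 1.86% and 2.62% in every library, HBII_108B between 0.400% and 1.26%, and SNORD19 has at most 2 reads.

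The order SNORD69, HBII_108B, SNORD19 held in 3 of 3 libraries, and the shares of the 3 did not overlap. SNORD69 reads outnumbered HBII_108B reads 6.54-fold, 3.82-fold and 1.47-fold in libraries 1, 2 and 3, a mean log2 ratio of 1.73 ± 1.09 (SD, n = 3) or 3.33-fold. Divided by the length of the commonest span, the mean log2 ratio was 1.83, and with each distinct sequence counted once it was 1.03. Over the libraries together, HBII_108B had 398 reads against 3 for SNORD19, a ratio of 133-fold with a counting interval of 45.1 to 646. For SNORD69, with 1172 reads, the ratio to SNORD19 was 391-fold (133 to 1897). As means over libraries, with the 0 of SNORD19 in library 1 set to the floor of 3 counts, the log2 ratios to SNORD19 were at least 5.97 for HBII_108B and at least 7.71 for SNORD69. With each distinct sequence counted once they were 4.89 and 5.91. All 3 pairs had p = 0.25 by an exact permutation test that flips signs over libraries (two-sided), also after Benjamini-Hochberg adjustment, which is the smallest p that 3 libraries allow. The mean log2 ratio of SNORD69 to HBII_108B was 1.25 without library 1 and 2.32 without library 3.

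The read shares of HBII_108B and SNORD69 did not keep a fixed proportion over the 3 libraries, a change that was not tested. HBII_108B was 3.15-fold higher in its highest library (3) than in its lowest (1), whereas SNORD69 was highest in library 1 and lowest in library 3, 1.41-fold apart. The median of this ratio over the 108 box C/D entries with at least 10 reads in every library was 1.69. Of those entries, 6 varied as much as HBII_108B or more (itself included), and 86 as much as SNORD69 or more. By the mean absolute difference in log2 share over the 3 libraries, HBII_99B (0.265) and SNORD29 (0.339) were nearest to HBII_108B among 107 box C/D entries. HBII_99B took 0.615%, 0.669% and 1.16%. SNORD38B (0.102) and SNORD24 (0.123) were nearest to SNORD69. These entries were picked by closeness in each library, so a like order over the libraries follows from the choice and is no separate result.

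For snoRNAs in introns of other nucleolar protein genes the levels are given beside those of all entries. Of 13 hosted by NCL (nucleolin), NOP56 and NOP58 (core proteins of box C/D particles) and DKC1 (dyskerin, the pseudouridine synthase of box H/ACA particles), 10 had reads in all 3 libraries. The median share of the 12 with an entry was 0.184%, against 0.114% over all 260 entries. Of the 12, 1 exceeded HBII_108B and 0 exceeded SNORD69, and over all entries 37 of 260 (14.2%) exceeded HBII_108B, so nothing particular to the list is read from this. SNORD82 took 1.04% ± 0.23, SNORD11 0.660% ± 0.13, SNORD20 0.489% ± 0.083 and SNORD70 0.287% ± 0.058 (SD, n = 3 each). One of the 13, SNORD11B, had no entry among the 260.

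Most reads of both abundant members covered at least 90% of the commonest span. The commonest first and last bases of reads over 40 nt were 10 and 74 in HBII_108B and 9 and 69 in SNORD69, spans of 65 and 61 nt. These commonest products are shown with the boxes in capitals.
HBII_108B, chr3:52690753-52690817: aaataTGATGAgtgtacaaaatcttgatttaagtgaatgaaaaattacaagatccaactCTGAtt
SNORD69, chr3:52692744-52692804: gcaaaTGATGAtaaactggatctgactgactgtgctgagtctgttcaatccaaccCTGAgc
Both began 5 nt before the box C motif and ended 2 nt after box D. Of 57 box C/D snoRNAs with at least 10 reads in every library, a single GENCODE model and both motifs, 29.8% began 5 nt before box C (33.3% began 6 nt before it) and 28.1% ended 2 nt after box D. Both distances held in 13 of the 57 (22.8%), the commonest pair, ahead of 6 and 5 nt in 9 snoRNAs. The distances rest on counting the entries' positions from the GENCODE start.

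**Figure D2:**
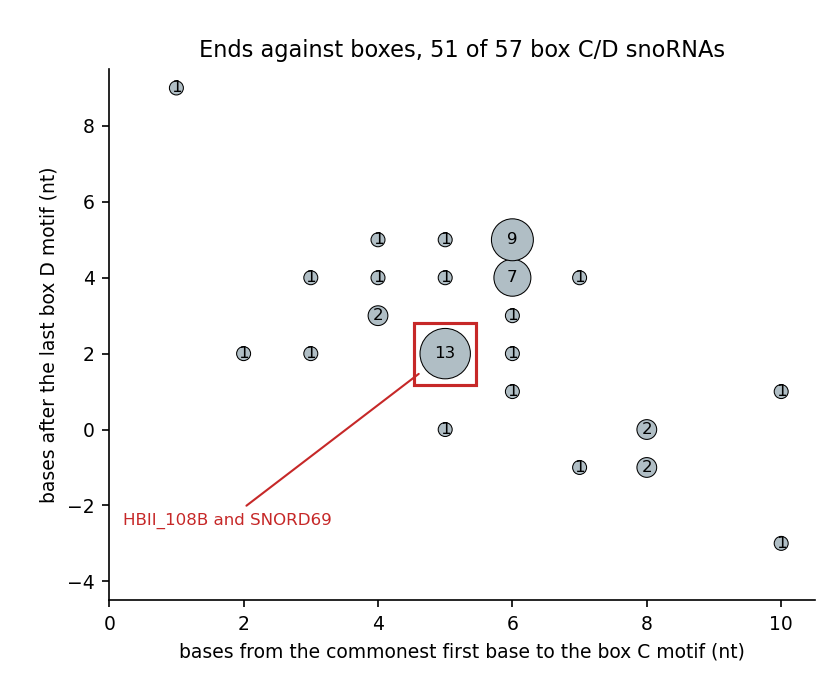
Commonest ends of 51 of 57 box C/D snoRNAs (the rest fall outside the axes): bases from the first base to the box C motif (horizontal, nt) against bases after the last box D motif (vertical, nt), with circle area and number giving the count of snoRNAs. HBII_108B and SNORD69 are among the 13 snoRNAs at the fullest position, 5 nt and 2 nt.

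A read was called near full-length when it spanned at least 90% of the commonest span, that is 59 nt in HBII_108B and 55 nt in SNORD69. Such reads numbered 65, 61 and 196 in HBII_108B, or 81.2%, 79.2% and 81.3% of its reads, a mean of 80.6% ± 1.2 (SD, n = 3). In SNORD69 they numbered 464, 265 and 331, or 88.7%, 90.1% and 93.2%, a mean of 90.7% ± 2.3. The SNORD69 limit of 55 nt admits reads that end at position 63, before box D, which were 54 of its near full-length reads. With a limit of 95% the means were 84.3% for SNORD69 and 79.2% for HBII_108B. The 2 members did not overlap, and over 108 box C/D entries the median was 78.7%, with SNORD69 at rank 6 and HBII_108B at rank 45. Around the limit, SNORD69 had 5 and 4 reads spanning 53 and 54 nt, just outside, and 42 and 19 spanning 55 and 56 nt, just inside. HBII_108B had 1 and 5 reads at 57 and 58 nt and 2 and 2 at 59 and 60 nt.

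Reads longer than the stretch they covered, which the files record as a length above the span, made up 20.05% ± 3.5 of HBII_108B and 18.3% ± 3.5 of SNORD69 reads (SD, n = 3). The median over the 108 entries was 14.1%, and the members ranked 14 and 22. Reads shorter than their span were 7.39% ± 3.4 and 1.82% ± 0.75. The bases gained or lost are not in the files.

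The 5′ ends fell on a pair of neighbouring bases and the 3′ ends mostly on 1. In HBII_108B, 53.8%, 60.7% and 62.8% of near full-length reads of libraries 1, 2 and 3 began at position 10, and 38.1% ± 4.3 (SD, n = 3) at position 9. Position 74 was the last base of 70.8%, 72.1% and 73.5%. In SNORD69, 69.8%, 73.96% and 61.6% began at position 9, and 26.3% ± 5.1 at position 8. Its last base was position 69 in 88.6%, 79.2% and 81.6% of reads and position 68 in 8.36% ± 1.9.

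The commonest last base thus took a larger share than the commonest first base in 3 of 3 libraries for both members. The difference was -13.0 ± 3.4 percentage points (first minus last) in HBII_108B and -14.7 ± 8.1 in SNORD69 (SD, n = 3 each). The same exact permutation test gave p = 0.25 for both, also after Benjamini-Hochberg adjustment, the smallest p possible. With each distinct sequence counted once, the HBII_108B difference was 0.41 points. Over 107 box C/D entries the first base took a median of 85.6% and the last base 79.1%, and 39 of the 107 had the sharper end at the last base. By the share at the first base, SNORD69 ranked 91 and HBII_108B 95 of 107. By the share at the last base they ranked 45 and 70, so neither had an unusually sharp 3′ end.

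**Figure D3:**
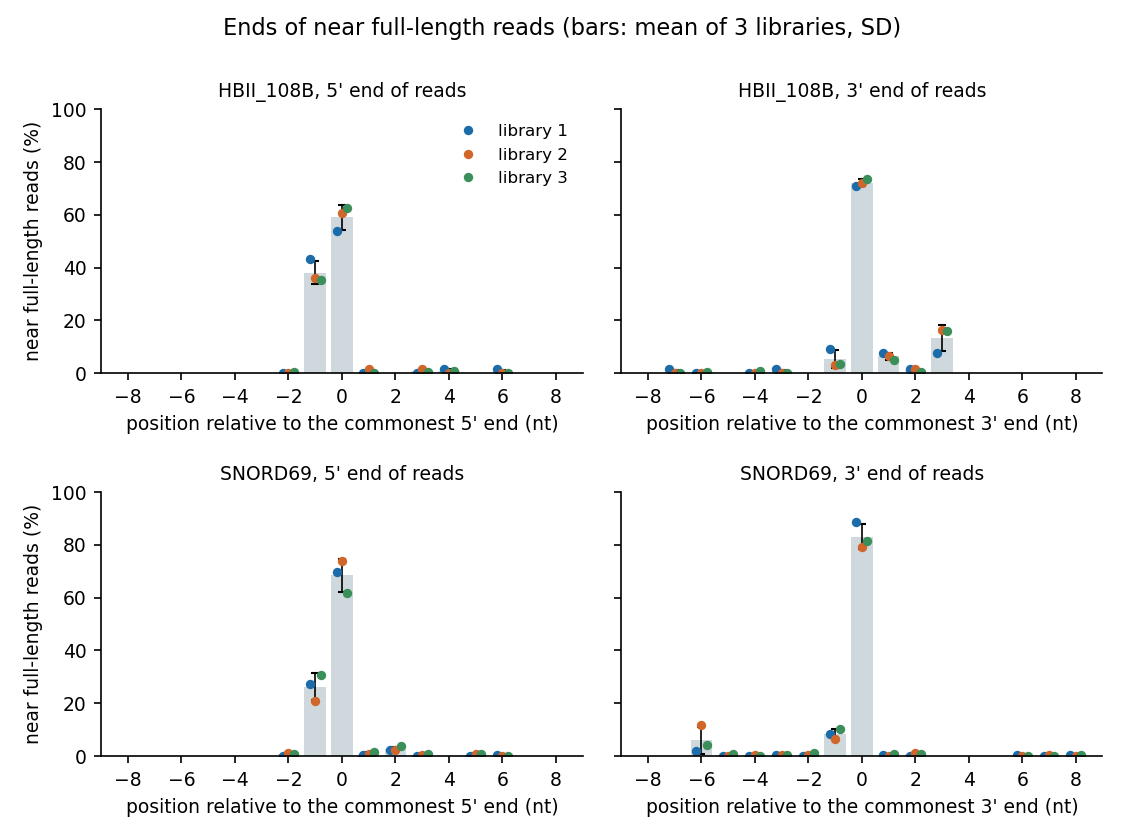
Share of near full-length reads (percent) by the position of their 5′ end (left) and 3′ end (right) relative to the commonest one (nt), for HBII_108B (top) and SNORD69 (bottom); bars are means of 3 libraries, error bars SD, points libraries. Both members show a neighbouring 5′ end 1 base upstream (38.1% and 26.3%), HBII_108B a 3′ end 3 bases further on (13.3%) and SNORD69 one 6 bases earlier (5.96%).

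HBII_108B had a longer product in which both ends moved together, shown with its extra bases in capitals.
HBII_108B, positions 9 to 77, chr3:52690752-52690820: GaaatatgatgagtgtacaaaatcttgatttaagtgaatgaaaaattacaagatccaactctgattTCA
Reads ending at position 77 numbered 5, 10 and 31, or 13.3% ± 4.9 of near full-length reads (SD, n = 3). Of these, 5, 9 and 29 began at position 9 and 0 at position 10, the commonest first base otherwise. Among reads ending at position 74, 16 of 46, 9 of 44 and 32 of 144 began at position 9, that is 34.8%, 20.5% and 22.2%. Over the libraries together, 93.5% of 46 reads ending at 77 began at position 9 (exact 95% interval 82.1% to 98.6%), against 24.4% of 234 reads ending at 74 (19.0% to 30.4%).

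The difference was 65.2, 69.5 and 71.3 percentage points in libraries 1, 2 and 3, a mean of 68.7 ± 3.1 (SD), far beyond the spread between libraries. Its sign-flip p was 0.25 by the exact permutation test, the smallest possible, and 0.75 after Benjamini-Hochberg adjustment over the 3 comparisons of this kind. For SNORD69 the same comparison gave differences of either sign. Reads ending at position 69 began at position 8 in 113 of 411, 42 of 210 and 84 of 270, and reads ending at position 68 did so in 23.1%, 29.4% and 26.5%. The mean difference was 0.12 ± 8.0 points (SD), with p = 1 by the exact permutation test. For reads ending at position 63 against 69 the difference was -16.4, 2.58 and 4.603 points, a mean of -3.07 ± 11.6 (SD, n = 3), again with p = 1 by the exact permutation test. These comparisons were picked after the end positions had been seen.

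**Figure D4:**
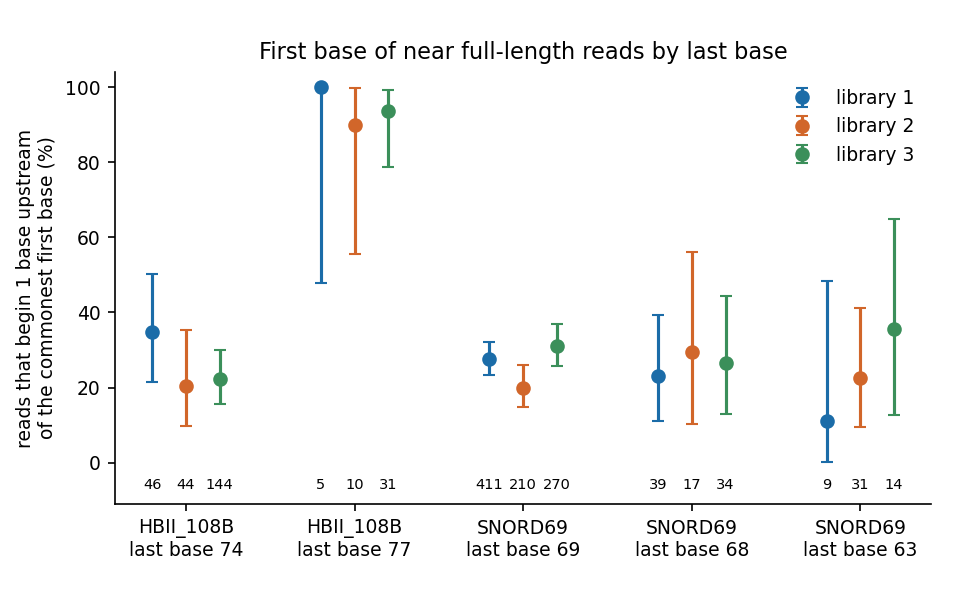
Share of near full-length reads (percent, exact 95% intervals) that begin 1 base upstream of the commonest first base, by member and last base; points are libraries and the numbers below are reads. HBII_108B reads ending at 77 lie at 90% or more in all libraries, while the other groups lie between 11.1% and 35.7%.

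The ends lie where the 2 sides of each RNA can pair. Counting G-T as a pair along with the usual ones, positions 1 to 12 of HBII_108B (ttttggttgaaa) were complementary to positions 73 to 84 (tttcagccagag) in 12 of 12 places. Positions 1 to 10 of SNORD69 (aatgtgaagc) were complementary to positions 68 to 77 (gcttcatgtt) in 10 of 10. Position 9 of HBII_108B faces position 76, so the product from 9 to 77 keeps this pair, and the product from 10 to 74 lacks both of its bases. Reads from 9 to 74, which keep position 9 without position 76, numbered 57, more than the 43 from 9 to 77. Whether pairing bears on the ends was not tested. In SNORD69 position 9 faces position 69, the commonest ends of its reads. This is a description of the letters of these 2 members, with no other box C/D snoRNA set beside them, and no fold was measured. It takes the positions of HBII_108B as counted from the GENCODE start.

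SNORD69 also ended just before box D, in a product that holds the atccaac stretch but not the box.
SNORD69, positions 9 to 63, chr3:52692744-52692798: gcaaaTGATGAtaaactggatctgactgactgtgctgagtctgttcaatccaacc
Capitals mark box C. Of its 486, 274 and 344 reads over 40 nt, 10, 33 and 14 ended at position 63, the base before box D (64 to 67), that is 2.06%, 12.04% and 4.07%. Library 2 was the highest, and without it the mean of 6.06% ± 5.3 (SD, n = 3) was 3.06%. That library also had more reads of up to 40 nt over all snoRNAs (27.3% against 11.9% and 12.1%), and the part of this in the result was not tested.

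For HBII_108B the same place, position 68 before box D at 69 to 72, ended 0 of 68, 0 of 65 and 1 of 219 reads, a mean of 0.152% ± 0.26 (SD, n = 3). SNORD69 was higher in 3 of 3 libraries, by 5.90 ± 5.4 percentage points, with p = 0.25 by the same exact permutation test, its lower bound. The exact 95% intervals of the 2 members stood apart in library 2 (8.44% to 16.5% against at most 5.52%). They overlapped in library 1 and, narrowly, in library 3 (2.24% to 6.73% against 0.0116% to 2.52%). Overlap of intervals does not decide whether the counts of a library differ, and that was not tested. Over the 57 box C/D snoRNAs with both motifs the median was 0.128%, 27 were at 0, and SNORD69 ranked 2.

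Short reads, those of up to 40 nt, were few in SNORD69. It had 37, 20 and 11 of them, or 7.07%, 6.80% and 3.10% of its reads (mean 5.66% ± 2.2, SD, n = 3), beside the 464, 265 and 331 near full-length reads. HBII_108B had 12, 12 and 22, or 15%, 15.6% and 9.13% (mean 13.2% ± 3.6), and the median over 108 box C/D entries was 15.4%. Library 3 was lowest for both members.

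The ratio of short to near full-length reads was tested over 125 snoRNAs with edgeR's quasi-likelihood test, in which 0 is close to the ratio of the middle snoRNA. SNORD69 reached -1.69 ± 0.33 on the log2 scale (SE, n = 3), 3.23-fold fewer short reads (edgeR adjusted p = 0.00257). In the same test 40.8% of the snoRNAs passed the threshold, and 16.8% passed it with fewer short reads. HBII_108B stood at -0.31 ± 0.36 (SE), which did not pass (edgeR adjusted p = 0.538). The SNORD69 call was lost without library 2 (log2 -1.40, edgeR adjusted p = 0.134) and without library 3 (-1.49, 0.0520). Of the 13 snoRNAs hosted by other nucleolar protein genes 9 were tested, and 4 of these, SNORD57, SNORD110, SNORD11 and SNORA75, had more short reads by the same test and 0 had fewer. Their median log2 ratio was 0.39, against -0.028 over all 125. Among all 125 snoRNAs, 30 (24%) passed the threshold with more short reads, and without library 2 only 2 of 158 did. With 9 tested, nothing particular to the list is read from this.

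The short reads came mostly from the 5′ side. In SNORD69, 31 of 37, 18 of 20 and 6 of 11 began within 1 nt of the commonest first base, 55 of 68 in all (80.9%, exact 95% interval 69.5% to 89.4%). They ended at 19 different positions from 25 to 50. In HBII_108B, 7 of 12, 9 of 12 and 12 of 22 began there, 28 of 46 in all (60.9%, 45.4% to 74.9%), and ended at 16 positions from 28 to 49. Reads ending within 1 nt of the commonest last base numbered 8 in SNORD69 and 5 in HBII_108B. Of the 55 SNORD69 reads that began there, 22 (40%, 27.02% to 54.1%) stopped at position 35, namely 8 of 31, 11 of 18 and 3 of 6. Of the 28 in HBII_108B, at most 3 stopped at any 1 position.

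By the midpoint, 33, 18 and 8 short reads of SNORD69 lay on the 5′ side of the span's middle and 4, 2 and 3 on the 3′ side, so the 5′ side led in 3 of 3 libraries. On the log2 scale edgeR put 3′ over 5′ reads at -2.55 ± 0.82 (SE, n = 3; adjusted p = 0.0118). For HBII_108B the counts were 10, 12 and 17 against 2, 0 and 5, again with the 5′ side ahead in every library. The log2 ratio for HBII_108B came to -2.60 ± 0.92 (SE, n = 3; edgeR adjusted p = 0.0209), and its fitted size depends on how the 0 is treated. Among the 111 snoRNAs tested 31.5% passed the threshold, 22 toward the 5′ side (19.8%) and 13 toward the 3′ side. With a library size for each side these counts were 10 and 14.

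These placements rest on few reads. Without library 1 both calls were lost, with edgeR adjusted p of 0.163 for SNORD69 and 0.0585 for HBII_108B, and without library 2 they were 0.175 and 0.197. The HBII_108B call was also lost without library 3 (0.0543), and with a library size for each side (0.0867), DESeq2 (0.0564), reads of up to 30 nt (0.0994) and no library block (0.0526). Of 7 tested snoRNAs hosted by other nucleolar protein genes, SNORD20 and SNORD57 had more 5′ reads and 0 had more 3′ reads by the same test. Their median log2 ratio was -0.81, against -0.53 over all 111. Among all 111 snoRNAs, 22 (19.8%) passed the threshold toward the 5′ side.

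**Figure D5:**
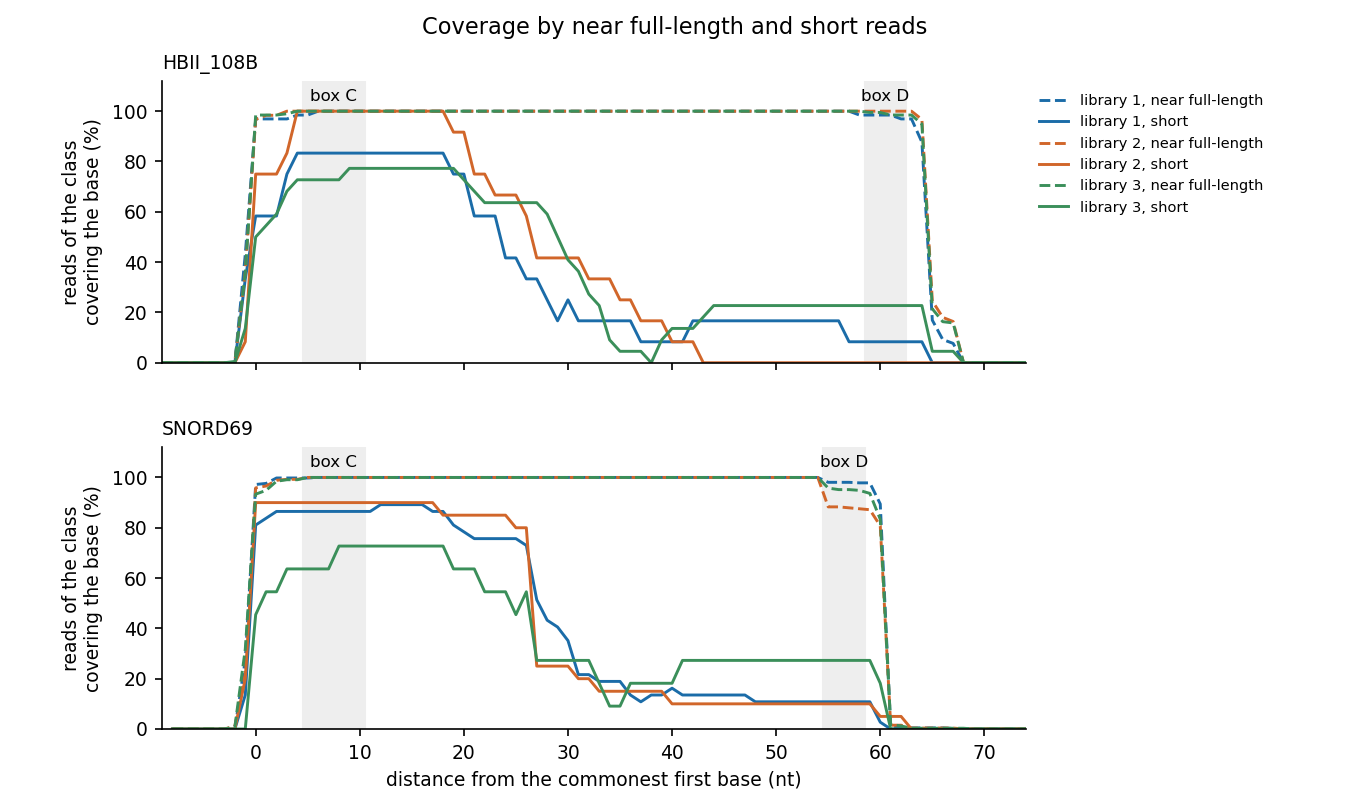
Share of reads of each class (percent) that cover each base, by distance from the commonest first base (nt), for HBII_108B (top) and SNORD69 (bottom); dashed lines are near full-length reads, solid lines reads of up to 40 nt, colours libraries, and grey bands the box C and last box D motifs. Short reads cover box C far more than box D in both members, and in library 2 near full-length coverage of SNORD69 steps down before box D.

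One short product of SNORD69 stood out by its count, and its bases are shown with box C in capitals.
SNORD69, positions 9 to 35, chr3:52692744-52692770: gcaaaTGATGAtaaactggatctgact
This 27 nt read began at the commonest first base and was seen 8, 9 and 3 times. It ended inside the second of a tandem pair of CTGA letters at 30 to 33 and 34 to 37, both upstream of box D. The next commonest short read, from 9 to 39, was seen 5, 1 and 0 times. In HBII_108B no short read was seen more than 3 times in all. That commonest one ran from 10 to 30, with 1, 2 and 0 reads. Reads of 20 to 24 nt, the size of miRNAs, numbered 5, 0 and 3 in SNORD69 and 4, 3 and 2 in HBII_108B. Reads of 27 to 31 nt numbered 21, 12 and 4 in SNORD69 and 4, 2 and 6 in HBII_108B.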

How the data were processed

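The authors deposited unnormalized read counts, per the file headers, 1 record for every distinct sequence, with its snoRNA entry, length and first and last position there. The kit was Ion Total RNA-Seq v2, per the labels' protocols, and the submitters' processing notes name GRCh38.p10. Aligner, trimming and filters: not given in the sources used here. Libraries 1, 2 and 3 held 19989, 11958 and 19092 counts, so a count of 0 allows 0.0150%, 0.0251% and 0.0157%.

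Entries were named through a RefSeq table (248 of 260). Sequences, positions and host introns came from GENCODE 29. The span of a snoRNA ran from the commonest first to the commonest last base of its reads over 40 nt, weighting libraries equally. This was set after seeing that few member reads spanned 90% of the highest position. A count of 0 was set to 3 in ratios. Fits used edgeR 4.0.16 (quasi-likelihood, library as block, Benjamini-Hochberg at 0.05): short against near full-length counts with TMM, for snoRNAs with at least 10 reads in every library, and placement with 1 library size per library, for at least 15 placed short reads. SE is the log2 ratio over the square root of F. Software was R 4.3.3 with DESeq2 1.42.0 as an alternative, and Python 3.11.15 with SciPy 1.17.1, NumPy 2.4.6, pandas 2.3.3 and, for plots, matplotlib 3.10.9.

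The members, the host list and the tests were chosen with earlier results of these data known. Named were the 3 members, at most 4 of the host list by share, its called members, the 2 nearest entries by level and the commonest reads. The products from 9 to 77 and from 9 to 63 were chosen after their values were seen. The table of totals per entry was not used.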

Additional observations from a re-analysis of the deposited data

How the results depend on the processing

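Of 79 alternatives of the values that answer a comparison, 65 kept the direction and the side of the threshold, 11 lost a call and 3 turned. The 65 include alternatives of the level ratios that could not change the value. TMM factors cancel within a library, and leaving out sequences listed under more than 1 entry removed 0 sequences. The sign-flip tests could not pass the threshold under any setting, so for levels and end sharpness only the direction can be read. With the near full-length limit taken from the highest position seen (added after seeing the data), the log2 ratio of short to near full-length reads turned to 7.22 in HBII_108B and 7.01 in SNORD69, since only 1 and 2 of their reads then counted as near full-length. With each distinct sequence counted once, the end difference of HBII_108B turned to 0.41 percentage points. The HBII_108B placement ratio lost its call with reads of up to 30 nt (-2.03), a library size for each side (-1.93), DESeq2 (-2.85) and no replicate block (-2.37). The block did not change the other calls on the members. No paired analysis between groups was possible because there is 1 group.

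Leaving out each library in turn gave log2 placement ratios from -3.41 to -1.95 for HBII_108B and -3.04 to -2.24 for SNORD69, and short-read ratios from -0.61 to -0.030 and -2.23 to -1.40. The mean log2 level ratio ran from 1.25 to 2.32 for SNORD69 over HBII_108B, from 5.50 to 6.59 for HBII_108B over SNORD19 and from 7.46 to 7.84 for SNORD69 over SNORD19, where values that include library 1 are lower bounds, since its SNORD19 count of 0 was set to 3. The end difference ran from -14.2 to -11.1 and from -19.3 to -12.0 points. Without library 2 the placement test called 0 of 96 snoRNAs by edgeR (26 at an unadjusted p below 0.05) and the short-read test 2 of 158 (45 at an unadjusted p below 0.05). Without libraries 1 and 3 the calls of fewer short reads were 13 and 4, against 21. With at least 1 count in all they were 33 of 252 snoRNAs. The calls toward the 5′ side were 6 and 11 without libraries 1 and 3, 11 with reads of up to 30 nt and 13 with DESeq2, against 22, and those toward the 3′ side were 7 without library 1, against 13. Depth limits SNORD19 most, with 3 reads in all.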
